A study of Mus musculus with 4 samples.

Results

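The 10 genes described here are 6 ligands of the TNF superfamily (Tnf, Lta, Ltb, Tnfsf10, Tnfsf13b and Fasl) and 4 receptors of the TNF receptor superfamily (Ltbr, Tnfrsf10b, Fas and Cd40). They were taken as every probe set whose single gene symbol in the platform annotation is one of these names, which gave 18 of 45101 probe sets, 11 of ligands and 7 of receptors. By gene they are 10 of 18194 genes with a probe set of their own. The study hybridised back skin RNA to 4 Affymetrix arrays, 2 from K5-IKKbeta transgenic mice and 2 from wild type mice. The K5-IKKbeta mice carry the gene of the kinase IKKbeta (Ikbkb) under regulatory elements of keratin K5, which act in basal keratinocytes of the epidermis and hair follicle. All mice of both groups were 32-day-old males of the cross C57BL6 X DBA2, and each array is a pool of 3 animals. Differences within a group are therefore between pools, and the variation among mice is not seen. The number of transgenic lines is not given in the sources used here.

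TNF superfamily ligands are trimers, mostly anchored in the membrane of the cell that makes them, that cluster their receptors on a neighbouring cell. Some receptors, such as Fas and Tnfrsf10b, carry a death domain and can start apoptosis through caspase 8, while others, such as Ltbr and Cd40, recruit TRAF adaptors and activate NF-kB. IKKbeta is the kinase of the classical NF-kB pathway, through which Tnf acts and by which the genes of several of these ligands and receptors can themselves be induced. In skin, keratinocytes, Langerhans cells, macrophages and T cells make and receive these signals.

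Values are RMA expression values on the log2 scale, and a log2 fold change is the K5-IKKbeta mean minus the wild type mean. Every adjusted p is limma's, after Benjamini-Hochberg over all 45101 probe sets, and a probe set was called where this was under 0.05. The arrays had medians of 6.96 and 6.95 in K5-IKKbeta skin and 6.92 and 6.91 in wild type skin. Pearson's correlation over all probe sets was 0.994 between the K5-IKKbeta arrays, 0.996 between the wild type arrays and 0.965 to 0.969 between genotypes. The gene of the transgene checked the labels: of 5 Ikbkb probe sets 3 were higher and none lower. The largest change was at 1454184_a_at, which measured 8.77 and 8.74 in K5-IKKbeta skin, against 6.50 and 6.54 in wild type skin (log2 fold change 2.24, limma adjusted p = 1e-04). The brightest, 1426207_at, and 1426333_a_at were called at smaller log2 fold changes of 0.50 and 0.47 (limma adjusted p = 0.045 and 0.029). Those not called, 1432275_at and 1445141_at, had -0.15 and 0.14. The basal keratinocyte gene Krt14 measured 13.8 and 13.5 in K5-IKKbeta skin and 13.2 and 13.1 in wild type skin, a log2 fold change of 0.53 called just under the threshold.

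Ltb, Tnfsf10 and Fas were higher in K5-IKKbeta skin, by 3.72-fold, 3.57-fold and 2.37-fold at their brightest probe sets, and 1 of 3 probe sets of Cd40 was higher by 1.54-fold. Tnf lay higher in both transgenic pools but did not pass the test, and Ltbr, with a log2 fold change of 0.27, did not either. Lta, Tnfsf13b, Fasl and Tnfrsf10b gave no call, and their probe sets lay near background. Of the 18 probe sets 6, of 4 genes, were called higher, where 10.4% of all probe sets were. All 6 were among the 10 with a mean above the 40th percentile, a mean that includes the K5-IKKbeta arrays. Of all probe sets above that percentile 15.0% were called higher. None was called lower by limma, where 5.88% of all probe sets were; at an unadjusted p under 0.05, 9 were higher and 0 lower, where 17.4% of all probe sets were higher and 11.7% lower. By the brightest probe set of each gene, 3 of 10 were higher, against 14.3% of all genes higher and 6.64% lower. The median log2 fold change was 0.33 over the 18 probe sets and 0.00 over all probe sets. Both K5-IKKbeta arrays lay above both wild type arrays in 11 of the 18 probe sets, where they did so in 30.3% of all probe sets.

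**Figure D1:**
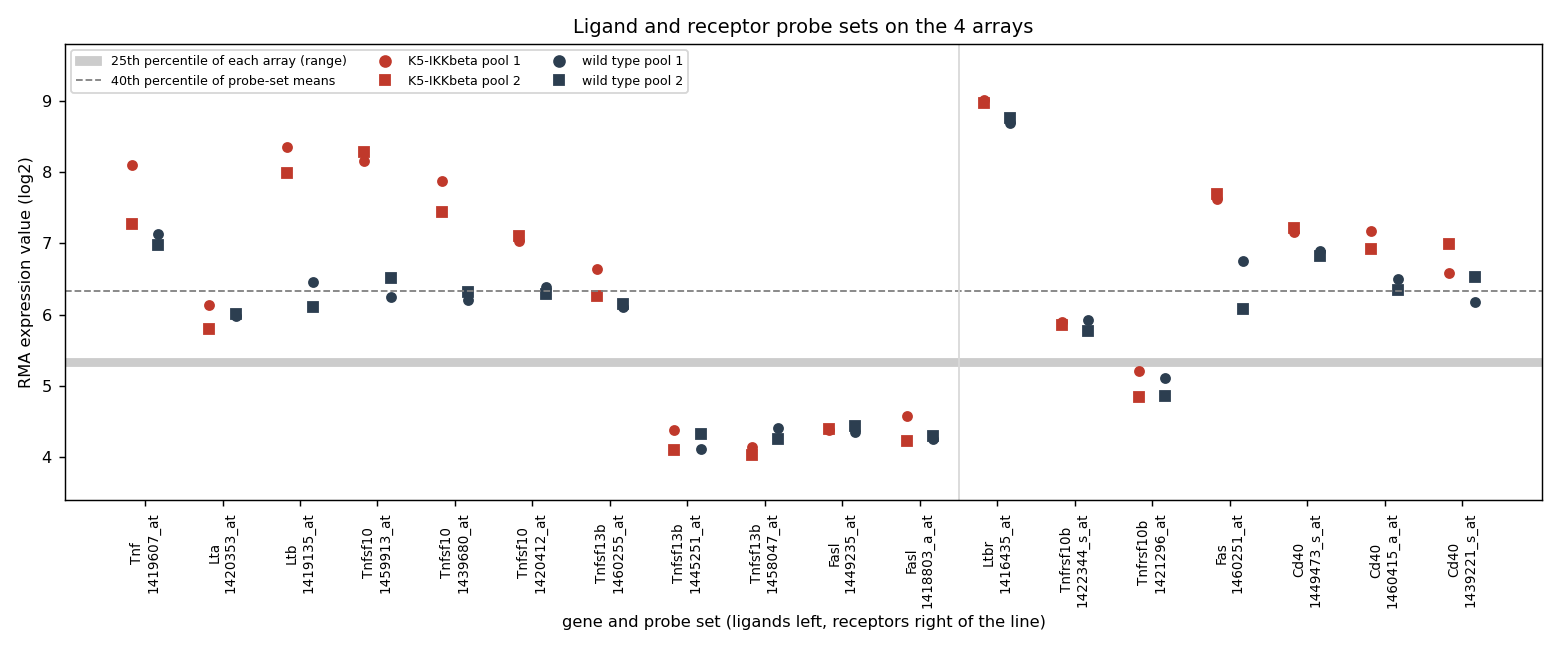
RMA expression values (log2, vertical axis) of the 18 probe sets on each of the 4 arrays, with K5-IKKbeta pools left and wild type pools right for each probe set; circles are pool 1 and squares pool 2. The grey band spans the 25th percentiles of the arrays and the dashed line is the 40th percentile of all probe-set means. Fasl, Tnfrsf10b 1421296_at and a pair of Tnfsf13b probe sets lie below the band. The K5-IKKbeta values of Ltb and Tnfsf10 1459913_at lie between 7.99 and 8.36, above all their wild type values.

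The array percentiles were used to say what is near background, since no detection calls were used here. A probe set was at the floor where all 4 arrays lay below their own 25th percentile, which was 5.35 and 5.27 on the K5-IKKbeta arrays and 5.38 and 5.32 on the wild type arrays. This held for 5 of the 18 probe sets: both of Fasl, 1445251_at and 1458047_at of Tnfsf13b, and 1421296_at of Tnfrsf10b. A further 3 were dim, with a mean at or below the 40th percentile of all probe-set means (6.33), namely Lta 1420353_at, Tnfsf13b 1460255_at and Tnfrsf10b 1422344_s_at. The other 10 probe sets, of 6 genes, were above it. Of these, Ltb and Tnfsf10 1439680_at passed through their K5-IKKbeta arrays, with wild type means of 6.28 and 6.26, so their wild type levels were dim and their folds are rough. As a rough scale for unspecific signal, 17 genes of retina, pancreas, liver and testis had values of 3.90 to 8.12 with a median of 5.55; Cyp2e1 of that list, which measured 12.1 and 10.5 in K5-IKKbeta skin and 8.94 and 8.52 in wild type skin, was left out after its values were seen. Of the 17, 2 were called lower. Cyp2e1 was the gene of the list called higher (log2 fold change 2.57, limma adjusted p = 0.013). That none of the 17 was called higher therefore follows from leaving it out, and the top of the range rests on the same choice. In 15 of the 18 probe sets all 4 arrays lay within that range, and Ltbr was the probe set with all 4 above it. Since probe sets differ in how brightly they read the same amount of RNA, this scale places none of them exactly, and fold changes of the dimmer ones are rough.

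Among the ligands, Ltb had the highest fold change. Ltb is the chain of lymphotoxin that anchors the Lta-Ltb heterotrimer in the membrane, the ligand of Ltbr, and is made mainly by lymphocytes. Probe set 1419135_at measured 8.36 and 7.99 in K5-IKKbeta pools 1 and 2, against 6.45 and 6.11 in wild type pools 1 and 2. Both transgenic pools lay above both wild type pools, by more than the spread within either genotype. The log2 fold change was 1.89 (SE 0.18, 95% interval 1.47 to 2.32, limma adjusted p = 0.0011). With each array left out in turn it was 1.71 to 2.08 and stayed past the threshold.

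Tnfsf10 (TRAIL) is a death ligand made by lymphocytes, myeloid cells and keratinocytes and is induced by interferons. Its 3 probe sets were each higher in K5-IKKbeta skin, with fold changes that differed between them. The brightest, 1459913_at, measured 8.15 and 8.28 in K5-IKKbeta skin, against 6.25 and 6.51 in wild type skin (log2 fold change 1.83, SE 0.13, limma adjusted p = 0.00044). Probe set 1439680_at measured 7.88 and 7.44 in K5-IKKbeta skin, against 6.21 and 6.32 in wild type skin (log2 fold change 1.39, SE 0.16, limma adjusted p = 0.0026). The groups did not overlap in either. Probe set 1420412_at measured 7.03 and 7.11 in K5-IKKbeta skin and 6.39 and 6.30 in wild type skin, a log2 fold change of 0.73 (SE 0.11, limma adjusted p = 0.0067). That last call was lost without wild type pool 1 (limma adjusted p = 0.058) and without wild type pool 2 (limma adjusted p = 0.085), while those of 1459913_at and 1439680_at held without any single array. The intervals of the brightest (1.52 to 2.15) and the dimmest probe set (0.46 to 0.99) do not meet; which transcripts each reads was not analysed here.

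Tnf, the founding cytokine of the family and a target as well as an activator of NF-kB, measured 8.11 and 7.27 in K5-IKKbeta pools 1 and 2, against 7.13 and 6.98 in wild type pools 1 and 2. K5-IKKbeta pool 1 stood 0.84 above pool 2, while pool 2 lay only slightly above the wild type pools. The log2 fold change of 0.63 (SE 0.26, 95% interval 0.01 to 1.25) did not pass the test (limma adjusted p = 0.17). A single array decided the value: without K5-IKKbeta pool 2 it was 1.05 (limma adjusted p = 0.0051), and without K5-IKKbeta pool 1 it was 0.21 (limma adjusted p = 0.37).

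Lta, the soluble lymphotoxin chain that also completes the Ltb heterotrimer, did not follow Ltb. Its probe set measured 6.13 and 5.80 in K5-IKKbeta skin and 5.98 and 6.01 in wild type skin, so the groups overlapped. The log2 fold change was -0.03 (SE 0.14, 95% interval -0.36 to 0.30, limma adjusted p = 0.93), at a dim level. Tnfsf13b (BAFF), the survival factor of B cells, measured 6.64 and 6.26 in K5-IKKbeta skin, against 6.11 and 6.15 in wild type skin at its brightest probe set 1460255_at (log2 fold change 0.32, 95% interval -0.04 to 0.68, limma adjusted p = 0.22). Both transgenic pools lay above the wild type pools, pool 2 by little, and without that pool the value was 0.51 (limma adjusted p = 0.044). The other Tnfsf13b probe sets, at the floor, had log2 fold changes of 0.03 and -0.25 (limma adjusted p = 0.94 and 0.22). Fasl, the ligand of Fas on cytotoxic lymphocytes, lay between 4.22 and 4.57 on K5-IKKbeta arrays and between 4.26 and 4.44 on wild type arrays over its 2 probe sets, all at the floor. Its log2 fold changes of -0.01 and 0.12 (limma adjusted p = 0.96 and 0.66) leave a difference not detectable at this signal.

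**Figure D2:**
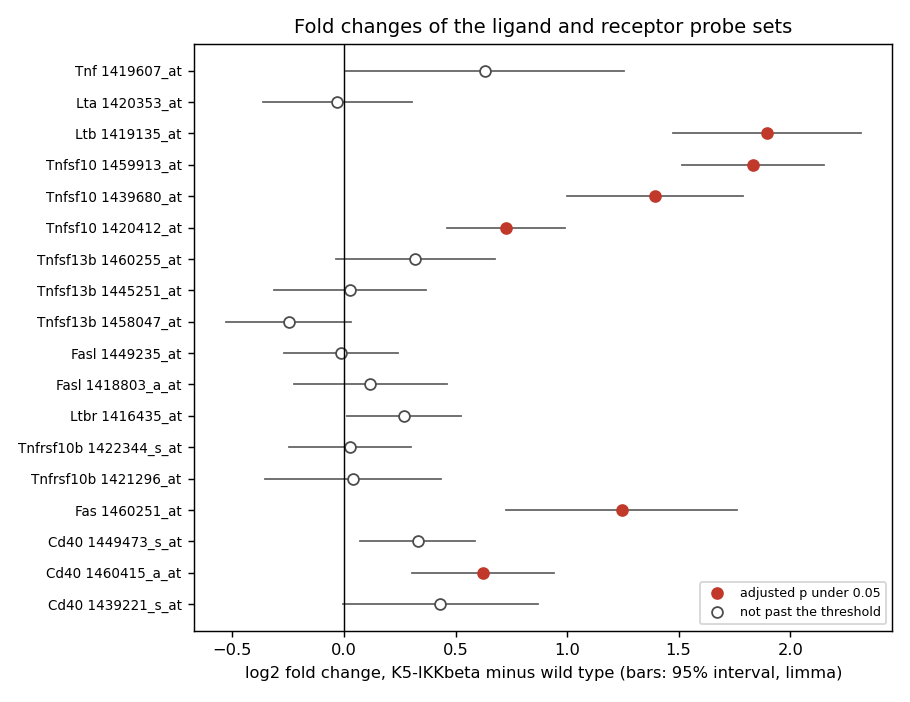
Log2 fold change (K5-IKKbeta minus wild type, horizontal axis) of each of the 18 probe sets with its 95% interval from limma; filled points had an adjusted p under 0.05 over all probe sets. The 6 filled points, from 0.62 for Cd40 1460415_a_at to 1.89 for Ltb, all lie right of 0.

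Among the receptors, Fas was higher. Fas carries a death domain and passes the Fasl signal to caspase 8. Probe set 1460251_at measured 7.62 and 7.69 in K5-IKKbeta pools 1 and 2, against 6.75 and 6.08 in wild type pools 1 and 2. The transgenic pools lay close together and above both wild type pools, which differed from each other by 0.67. The log2 fold change was 1.24 (SE 0.21, 95% interval 0.73 to 1.76, limma adjusted p = 0.011). It was 0.91 without wild type pool 2 and 1.58 without wild type pool 1, and stayed past the threshold with each array left out (limma adjusted p = 0.01 to 0.039).

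Cd40, the receptor through which T cells license B cells, dendritic cells and macrophages, and which keratinocytes also carry, had 3 probe sets. Probe set 1460415_a_at measured 7.17 and 6.92 in K5-IKKbeta skin, against 6.50 and 6.35 in wild type skin (log2 fold change 0.62, SE 0.13, limma adjusted p = 0.023). Its groups did not overlap, but the call was lost without K5-IKKbeta pool 1 (limma adjusted p = 0.064), without wild type pool 1 (0.10) and without wild type pool 2 (0.18). The brightest, 1449473_s_at, measured 7.16 and 7.22 in K5-IKKbeta skin and 6.89 and 6.82 in wild type skin, a log2 fold change of 0.33 (SE 0.11, limma adjusted p = 0.092). Its groups stood apart by less than those of 1460415_a_at. Probe set 1439221_s_at measured 6.58 and 6.99 in K5-IKKbeta skin, against 6.18 and 6.53 in wild type skin (log2 fold change 0.43, SE 0.18, limma adjusted p = 0.18), with pool 2 above pool 1 in both genotypes. The brightest Cd40 probe set passed when each gene was taken by its brightest probe set above the 40th percentile (limma adjusted p = 0.041) and the mean of all 3 passed too (log2 fold change 0.46, limma adjusted p = 0.015).

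Ltbr, the receptor of the lymphotoxin heterotrimer, made by epithelial, stromal and myeloid cells, was the brightest of the 18 probe sets against the arrays' percentiles. Probe set 1416435_at measured 9.02 and 8.97 in K5-IKKbeta skin, against 8.69 and 8.76 in wild type skin. The groups did not overlap, and the log2 fold change of 0.27 (SE 0.11, 95% interval 0.01 to 0.52) did not pass the test (limma adjusted p = 0.16). Tnfrsf10b, the death receptor for Tnfsf10 in mice, measured 5.89 and 5.86 in K5-IKKbeta skin and 5.93 and 5.77 in wild type skin at 1422344_s_at, a dim level with overlapping groups. Its log2 fold changes were 0.03 (95% interval -0.24 to 0.30, limma adjusted p = 0.92) there and 0.04 at 1421296_at, which lay at the floor. Of the ligand and receptor pairs, Tnfsf10 and Ltb were thus called higher and their receptors Tnfrsf10b and Ltbr were not, whereas the receptor Fas was called higher and its ligand Fasl was at the floor. The differences between the partners were not tested.

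Ltb, Tnf and Lta lie next to each other on chromosome 17 of the RefSeq gene table, with no other protein-coding gene between them. The 250 bases before their annotated starts are shown with those of Tnfsf10 and Fas, because Ltb, Tnfsf10 and Fas were called higher in K5-IKKbeta skin and Tnf and Lta, the neighbours of Ltb, were not. All are from RefSeq's annotation of GRCm38.p6 and run 5′ to 3′ on the strand of the gene. Capitals mark matches on either strand to the kB consensus, to the interferon-regulatory core GAAANNGAA or to the STAT core TTCNNNGAA; no matches overlapped. The windows lie at chr17:35194257-35194506 on the plus strand for Ltb, chr17:35202008-35202257 on the minus strand for Tnf, chr17:35205352-35205601 on the minus strand for Lta, chr3:27316827-27317076 on the plus strand for Tnfsf10 and chr19:34290409-34290658 on the plus strand for Fas.
Ltb: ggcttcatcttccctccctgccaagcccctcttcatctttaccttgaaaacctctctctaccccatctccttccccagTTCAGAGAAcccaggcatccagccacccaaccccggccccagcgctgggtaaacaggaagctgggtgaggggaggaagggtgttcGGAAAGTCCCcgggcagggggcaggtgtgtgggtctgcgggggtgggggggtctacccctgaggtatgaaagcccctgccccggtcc
Tnf: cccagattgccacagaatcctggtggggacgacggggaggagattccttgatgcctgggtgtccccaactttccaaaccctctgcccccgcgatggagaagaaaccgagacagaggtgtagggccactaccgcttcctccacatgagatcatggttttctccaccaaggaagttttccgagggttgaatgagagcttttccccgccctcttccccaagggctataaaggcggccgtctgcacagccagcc
Lta: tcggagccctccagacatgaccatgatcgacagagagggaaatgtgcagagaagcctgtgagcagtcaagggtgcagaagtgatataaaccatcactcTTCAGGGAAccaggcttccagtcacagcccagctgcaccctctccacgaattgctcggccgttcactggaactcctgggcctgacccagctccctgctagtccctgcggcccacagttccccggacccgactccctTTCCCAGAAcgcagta
Tnfsf10: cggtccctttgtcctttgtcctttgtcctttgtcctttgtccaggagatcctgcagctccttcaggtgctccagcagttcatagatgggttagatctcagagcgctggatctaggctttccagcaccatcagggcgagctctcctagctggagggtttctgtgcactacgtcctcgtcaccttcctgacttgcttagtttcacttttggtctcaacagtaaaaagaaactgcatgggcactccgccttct
Fas: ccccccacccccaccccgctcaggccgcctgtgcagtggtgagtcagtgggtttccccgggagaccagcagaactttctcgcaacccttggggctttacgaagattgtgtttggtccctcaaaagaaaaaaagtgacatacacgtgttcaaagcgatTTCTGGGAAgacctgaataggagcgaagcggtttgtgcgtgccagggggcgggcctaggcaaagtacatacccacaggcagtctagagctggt

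The Ltb window held 1 match to the kB consensus, GGAAAGTCCC, at 87 to 78 bases before the start, and a STAT core match at 172 to 164 bases. The windows of Tnf and Tnfsf10 held no match to any of these motifs, that of Fas held a STAT core match at 93 to 85 bases, and that of Lta held STAT core matches at 152 to 144 and 16 to 8 bases. Over all 32851 windows of this length in the table, 7.25% held a kB consensus match, 7.13% an interferon-regulatory core and 7.02% a STAT core. Of the 10 genes, 8 had windows (9 in all); Cd40 and Tnfrsf10b were not analysed here. Among the windows not shown, those of Ltbr and Fasl had no match, and the second of the 2 Tnfsf13b windows had an interferon-regulatory core at 16 to 8 bases. These are descriptions of the letters and not of binding, and sites farther away were not searched.

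Other genes of the superfamily were read by their brightest probe set, from a list of 12 further ligands, 8 of them with a probe set of their own. Of these 8, 2 were called higher and none lower by limma (3 higher and 0 lower at an unadjusted p under 0.05), with a median log2 fold change of 0.08 beside 0.03 over all genes. For this list and those that follow, the shares over all genes were 14.3% called higher and 6.64% called lower. At an unadjusted p under 0.05 they were 22.7% higher and 11.9% lower. Cd70, the ligand of Cd27 on activated lymphocytes and dendritic cells, measured 5.71 and 5.80 in K5-IKKbeta skin, against 4.28 and 4.75 in wild type skin. Tnfsf11 (RANKL), known from bone and also made in skin, measured 5.91 and 5.37 in K5-IKKbeta skin, against 4.71 and 4.65 in wild type skin. For both, the wild type arrays lay below the floor, and against that floor Cd70 was at least 1.33-fold higher (limma adjusted p = 0.0045) and Tnfsf11 at least 1.23-fold higher (limma adjusted p = 0.015). Both genes were dim, their K5-IKKbeta values included, with means over the 4 arrays of 5.13 for Cd70 and 5.16 for Tnfsf11. The call of Tnfsf11 was lost without wild type pool 1 (limma adjusted p = 0.10) and without wild type pool 2 (0.12). Cd40lg, the partner of Cd40, was named for that role after its values were seen: it measured 6.49 and 6.37 in K5-IKKbeta skin and 6.71 and 6.44 in wild type skin (limma adjusted p = 0.53).

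Of 24 further receptors 23 had a probe set of their own, and 6 of these were called higher and 1 lower, with a median log2 fold change of 0.27. Without wild type pool 1 the receptors called higher were 2, and likewise 2 without wild type pool 2. Tnfrsf18 (GITR), a receptor of regulatory and activated T cells also known in skin, measured 9.76 and 9.62 in K5-IKKbeta skin, against 8.38 and 8.37 in wild type skin (log2 fold change 1.31, limma adjusted p = 0.00079). Tnfrsf4 (OX40), a receptor of activated T cells, measured 10.1 and 9.84 in K5-IKKbeta skin, against 8.91 and 8.78 in wild type skin (log2 fold change 1.14, limma adjusted p = 0.0028). Both calls held without any single array. Eda2r, a receptor of the ectodysplasin isoform A2, measured 6.32 and 7.06 in K5-IKKbeta pools 1 and 2, against 5.62 and 5.70 in wild type skin, at a dim level (log2 fold change 1.03, limma adjusted p = 0.028). The log2 fold change was 1.40 without K5-IKKbeta pool 1 and 0.66 without K5-IKKbeta pool 2. Its call was lost without wild type pool 1 (0.17) and without wild type pool 2 (0.15).

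The receptors of Tnfsf13b did not move together. Tnfrsf13c (the BAFF receptor of B cells) was the receptor that fell, at 5.68 and 5.83 in K5-IKKbeta skin, against 6.79 and 6.74 in wild type skin (log2 fold change -1.01, limma adjusted p = 0.0022). This call held with each array left out, at a dim level. Tnfrsf13b (TACI), named after its values were seen as the other receptor of Tnfsf13b, measured 6.71 and 6.81 in K5-IKKbeta skin, against 5.95 and 5.95 in wild type skin (log2 fold change 0.81, limma adjusted p = 0.004). This wild type level was dim, and the Tnfrsf13b call was lost without wild type pool 1 and without wild type pool 2. Tnfrsf17, a further receptor of the same ligand, had -0.18 (limma adjusted p = 0.47). The receptors of Tnf, named for that role, were Tnfrsf1a at 11.5 and 11.2 in K5-IKKbeta skin against 11.0 and 11.0 in wild type skin (log2 fold change 0.37, limma adjusted p = 0.12) and Tnfrsf1b at 0.25 (limma adjusted p = 0.24). Neither passed the test. The remaining receptors called higher were Tnfrsf19, a receptor of hair follicle and skin, at 0.61, and Edar, the ectodysplasin receptor of hair follicle formation, at 0.51 (limma adjusted p = 0.016 and 0.039). The calls of Tnfrsf19 and Edar were also lost without wild type pool 1 and without wild type pool 2.

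**Figure D3:**
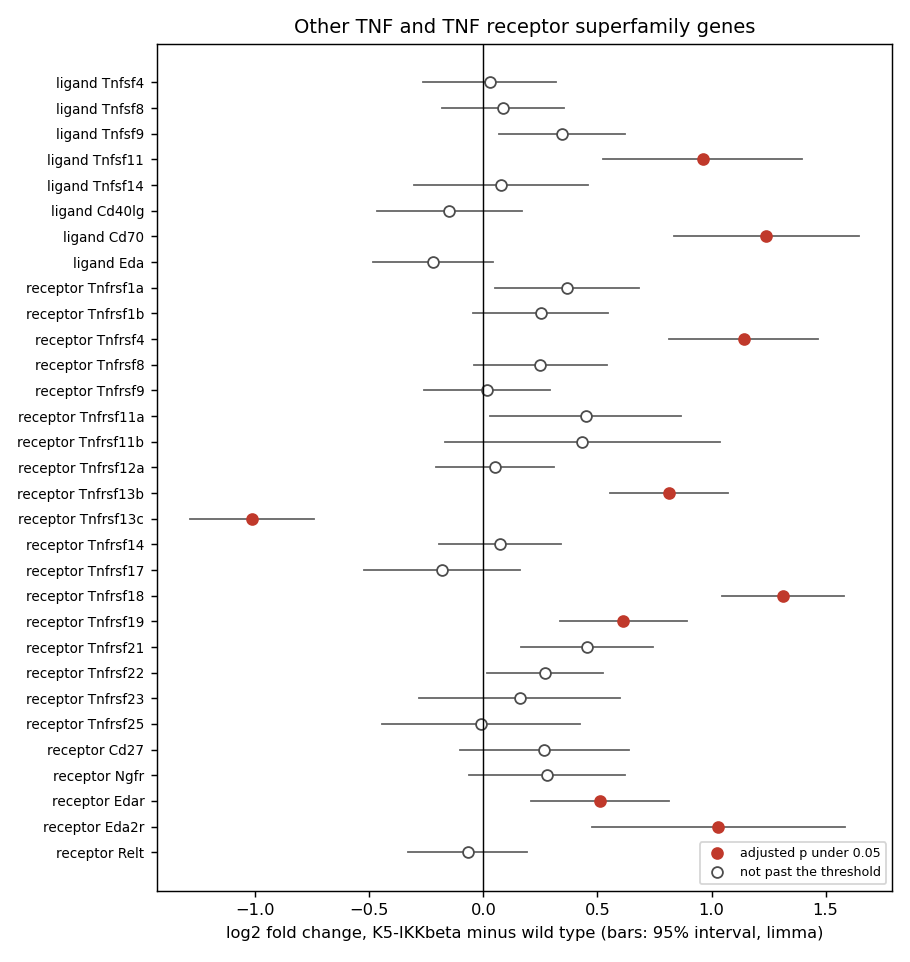
Log2 fold change (K5-IKKbeta minus wild type, horizontal axis) of 8 other ligands and 23 other receptors of the superfamily with 95% intervals from limma, each gene by its brightest probe set. Filled points had an adjusted p under 0.05 over all probe sets; 8 of them lie above 0 and Tnfrsf13c, at -1.01, below it.

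Downstream of Ltbr and Cd40, a list of 16 genes of the alternative NF-kB pathway and its targets had 12 with a probe set of their own. Of these, 7 were called higher and none lower by limma (7 and 0 at an unadjusted p under 0.05), with a median log2 fold change of 1.26. Relb, the NF-kB subunit of this pathway, had a log2 fold change of 2.73, its partner Nfkb2 1.73, the ubiquitin ligase Birc3, which restrains the kinase of the pathway, 1.77, and the adhesion molecule Icam1 3.07 (limma adjusted p = 4.5e-05, 0.00049, 0.00024 and 2e-04). These genes are targets of classical NF-kB as well, so they do not tell which receptor or kinase they follow. Not called were the kinase Map3k14, at 0.02, the lymphoid chemokine Cxcl13, at 0.03, the vascular addressin Madcam1, at 0.00, and the stromal chemokine Cxcl12, at -0.10. The remaining member not called was Glycam1, a glycoprotein of lymph node vessels, which measured 7.03 and 4.80 in K5-IKKbeta pools 1 and 2, against 4.48 and 4.64 in wild type pools. As for Tnf, K5-IKKbeta pool 1 stood above the others. These 5 were named because they are few.

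Downstream of Fas and Tnfrsf10b, 8 of 11 listed genes had a probe set of their own, and 3 were called higher and none lower by limma (5 and 0 at an unadjusted p under 0.05). Casp8, the initiator caspase bound by death receptors, measured 10.2 and 10.2 in K5-IKKbeta skin, against 8.83 and 9.08 in wild type skin (log2 fold change 1.26, limma adjusted p = 0.0015). Bid, which links caspase 8 to mitochondria, had a log2 fold change of 1.10 (limma adjusted p = 0.0016). Cflar, an inhibitor of caspase 8, had 0.49 (limma adjusted p = 0.032), a call lost with a further quantile normalization (0.055) and without K5-IKKbeta pool 1 (0.09), wild type pool 1 (0.22) or wild type pool 2 (0.17). Fadd, the adaptor between Fas and caspase 8 and named for that role, had 0.31 (limma adjusted p = 0.11).

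Markers of some of the cells that make or carry these proteins differed as well, in amounts that depended on the cell type. Beside the counts below, 14.3% of all genes were called higher by their brightest probe set. In bulk skin, more cells of a type and more RNA per cell cannot be told apart. Of 11 T cell genes 3 were called higher (Thy1, which is also made by fibroblasts and nerve, Cd3g and Cd3d), and the mean log2 level of the list was 7.10 to 7.27 in K5-IKKbeta skin and 6.70 to 6.78 in wild type skin. The T cell genes called were 5 without K5-IKKbeta pool 2, and 2 with any other single pool left out, Cd3d being the one lost; Cd4 and Cd8a had log2 fold changes of -0.13 and 0.20 (limma adjusted p = 0.57 and 0.49). Of 7 B cell genes none was called higher or lower by limma (0 and 0 at an unadjusted p under 0.05), 6 were dim, and those with the lowest p were Cd79b (log2 fold change 0.24) and Ms4a1 (-0.22). The B cell list lay at 5.54 to 5.77 in K5-IKKbeta skin and 5.54 to 5.67 in wild type skin. Of 8 NK cell genes 2 were called higher, Nkg7 and Klrk1, at list levels of 6.32 and 6.32 in K5-IKKbeta skin and 5.86 to 5.96 in wild type skin; both calls were lost without wild type pool 2, that of Nkg7 also without wild type pool 1 and that of Klrk1 also without either K5-IKKbeta pool. All 10 macrophage genes were called higher, Mpeg1 by 1.86, Aif1 by 1.82, Tyrobp by 1.72 and Lyz2 by 1.48 on the log2 scale, at list levels of 9.19 to 9.30 in K5-IKKbeta skin and 8.00 to 8.01 in wild type skin, and 7 of 10 without either wild type pool. Of 9 dendritic and Langerhans cell genes 6 were higher, led by H2-Aa (2.25), Cd74 (2.05), Itgax (1.96) and the Langerhans cell lectin Cd207 (1.79). The list lay at 8.47 to 8.62 in K5-IKKbeta skin and 7.35 to 7.43 in wild type skin. Flt3, Zbtb46 and Xcr1 of this list were not called (log2 fold change 0.28, 0.09 and 0.34). Endothelial genes were higher in 4 of 7 (Pecam1, Emcn, Tie1 and Cldn5), though in 2 without wild type pool 1 and 1 without wild type pool 2, and basal keratinocyte genes in 3 of 8, the keratinocyte list at 11.6 to 11.8 in K5-IKKbeta skin and 11.2 in both wild type pools. The keratinocyte genes called were 0 without either wild type pool, 1 without K5-IKKbeta pool 1, 6 without K5-IKKbeta pool 2 and 1 with arrays centred on their medians. With all arrays the keratinocyte genes called were Lamb3 (log2 fold change 1.14), Krt14 (0.53) and Krt5 (0.49), the last pair just under the threshold. No marker of any list was at 0, since RMA values have no zero. The part of these shifts in the higher Ltb, Tnfsf10, Fas and Cd40 values was not tested.

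**Figure D4:**
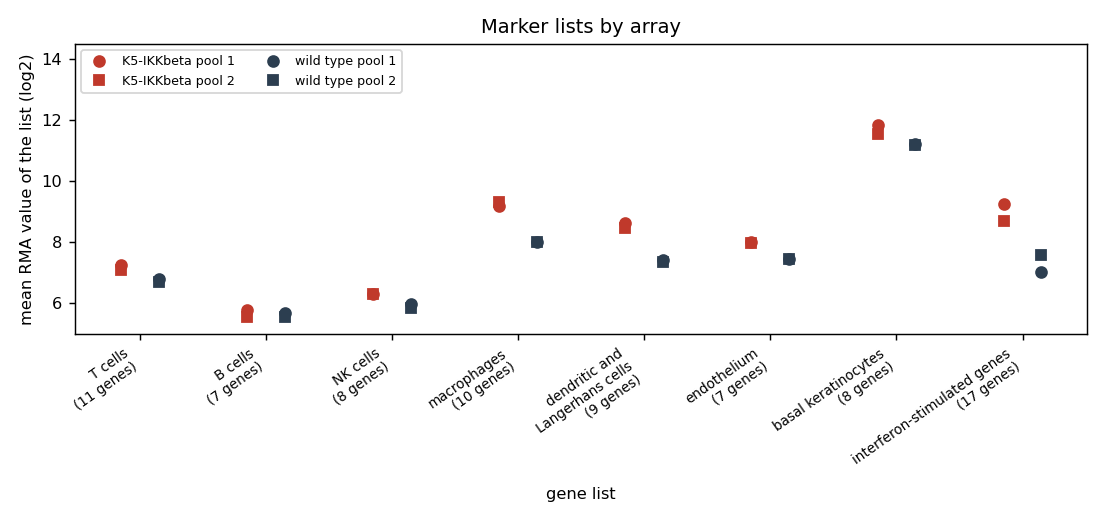
Mean RMA value (log2, vertical axis) of 7 cell marker lists and of interferon-stimulated genes on each array, each gene by its brightest probe set, with K5-IKKbeta pools left and wild type pools right of each list; circles are pool 1 and squares pool 2. Macrophage genes lie at 9.19 to 9.30 in K5-IKKbeta skin and 8.00 to 8.01 in wild type skin, B cell genes overlap, and the pools of each genotype stand apart in the interferon-stimulated genes.

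Tnfsf10, Tnfsf13b and Fas are known to respond to interferon, and interferon-stimulated genes differed between pools of a genotype. Of 17 such genes with a probe set of their own 14 were called higher and none lower by limma (16 and 0 at an unadjusted p under 0.05), with a median log2 fold change of 1.64, and 7 were called without wild type pool 1, Ifit1 not among them. Oasl2 had the largest log2 fold change (3.50), followed by Ifit1 (2.72), Rtp4 (2.59) and Oas3 (2.31). All 17 lay higher in K5-IKKbeta pool 1 than in pool 2, with a median difference of 0.66, and 15 of 17 lay lower in wild type pool 1 than in pool 2, with a median difference of -0.65. Over all probe sets these medians were 0.02 and -0.01. The difference of K5-IKKbeta pool 1 minus pool 2 was -0.13, 0.44 and -0.08 in the Tnfsf10 probe sets 1459913_at, 1439680_at and 1420412_at, 0.38 in Tnfsf13b 1460255_at, -0.07 in Fas, 0.37 in Ltb and 0.84 in Tnf. In wild type skin pool 1 minus pool 2 was -0.26, -0.10 and 0.10 in the same Tnfsf10 probe sets, -0.03 in Tnfsf13b 1460255_at, 0.67 in Fas, 0.35 in Ltb and 0.15 in Tnf. The order of the pools in interferon-stimulated genes was pool 1 above pool 2 in K5-IKKbeta skin and below it in wild type skin. It was found in 23.2% of all probe sets and in 6 of the 18 (33.3%). These were Tnfsf10 1439680_at, Ltbr, the dim Lta and Tnfsf13b 1460255_at, and Tnfsf13b 1445251_at and Fasl 1418803_a_at at the floor. The part of this difference between pools in the fold changes was not tested.

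Over the 4 arrays, the genes of closest pattern were sought for each of the genes whose brightest probe set was called, which leaves out Cd40. Among 13068 genes above the 40th percentile, the closest had the smallest root mean square difference of log2 values, each probe set's own mean subtracted. For Ltb they were Dbp (0.05), Kif5c (0.07) and Abcc3 (0.08). For Tnfsf10 1459913_at they were Sox18 (0.04), Ces1d (0.05) and Cd53 (0.06). For Fas they were P2ry6 (0.03), E330020D12Rik (0.10) and Prune2 (0.10). With 4 arrays, in which the genotype makes most of the difference, many genes share such a pattern, and these are given as a description of it.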

How the data were processed

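Total RNA of mouse back skin was extracted with Trizol and columns and labelled as biotinylated cRNA, per the labels' protocols. The authors summarized the arrays with RMA per the submitters' processing notes, which give no version or log base; RMA corrects background, normalizes by quantiles and summarizes probe sets, and it compresses large changes. The deposited values of 2.65 to 14.7 with medians near 7 have the range of log2 RMA values and were used as log2 without further scaling. The software version is not given in the sources used here.

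The 18 probe sets, all gene lists and the promoter motifs were chosen with earlier results of these data known. Of 45101 probe sets, 34958 had 1 gene symbol in the platform annotation, 932 several and 9211 none; 34754 matched the RefSeq gene table by identifier and 0 symbols changed. Genes outside the 10 were read by their brightest probe set (highest mean over the arrays); list genes with no probe set of their own were not analysed here. All 45101 probe sets, dim ones included, entered 1 two-sided fit of genotype (lmFit, then eBayes, of limma 3.58.1 under R 4.3.3), with Benjamini-Hochberg over all of them and a threshold of 0.05. Samples were grouped by their titles, 2 arrays each. p-values rest on the spread between pools of 3 mice, which may be technical in part, and the labels give no batch. For each probe set this spread is mostly pooled from all probe sets. The limma prior had 4.46 degrees of freedom, against 2 from a probe set's own arrays. An exact permutation test of 2 against 2 arrays cannot go below 0.33, so none was used. The number of arrays limits the precision. The fit was run on simulated data before use. Those data had independent arrays with spreads drawn from limma's own prior, so the run checks the code and not the calls made here.

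Named were all 18 probe sets and, per list, the called genes with the 4 largest log2 fold changes at most, or the 2 lowest p-values in a list without calls; others are said to have been named for their role, because few, or after their values were seen. If the dimmer genotype had both arrays under their 25th percentile, the fold is a lower bound against that floor. Alternatives were filters at the 40th and 60th percentile, the brightest probe set per gene above the 40th percentile, the mean per gene, endings of shared sequence left out, further scaling, other variance models, a test against a 1.2-fold change (treat), a replicate block and each array left out.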

Additional observations from a re-analysis of the deposited data

How the results depend on the processing

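Under no setting tried was a probe set of the 10 genes called lower, and 6 were called higher in the main setting. Of probe sets above the 60th percentile, which left only Ltbr of the 18, and with no moderation across probe sets, 0 were called higher; without moderation, 19 of all 45101 probe sets were called in place of 7350. Taking the brightest probe set of each gene together with the filter at the 40th percentile gave 4436 calls, the mean of a gene's probe sets 4216, fewer features being tested in both, and treat gave 3612. With an array left out the calls were 2530 to 7114 over all probe sets, 4 to 8 higher and 0 lower in these genes; the lone array of a group is then assumed to vary like the other group's. Of the calls of single probe sets, all 6 were lost without moderation, and that of Cd40 1460415_a_at also under treat. Probe sets near background changed sign at small values: Fasl 1449235_at was 0.053 with the gene mean and 0.018 with a further quantile normalization, and Tnfrsf10b 1422344_s_at was -0.012 and Tnfsf13b 1445251_at -0.013 with arrays centred on their medians. With an array left out, log2 fold changes ran from -0.057 to 0.29 for Fasl 1418803_a_at, -0.051 to 0.026 for Fasl 1449235_at, -0.19 to 0.13 for Lta, -0.14 to 0.23 for Tnfrsf10b 1421296_at, -0.051 to 0.11 for Tnfrsf10b 1422344_s_at and -0.11 to 0.17 for Tnfsf13b 1445251_at. The cause of these changes was not tested.

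The replicate numbers are shared by the groups but nothing says that they pair the pools. Deviations of K5-IKKbeta pool 1 and wild type pool 1 from their group means correlated at 0.255 across probe sets, with 2 numbers to pair. With the number as a replicate block 7139 probe sets were called in all, and 7 of the 18 higher and 0 lower, the added call being Cd40 1439221_s_at (limma adjusted p = 0.048).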
